A study of Homo sapiens with 9 samples.

Results

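Blocking the calcium pump of the endoplasmic reticulum (ER) was compared directly with blocking N-linked glycosylation in SH-SY5Y cells, a human neuroblastoma line of noradrenergic character that is widely used as a neuronal cell model. Thapsigargin inhibits the SERCA pumps, which refill the ER with calcium, and tunicamycin inhibits DPAGT1, the enzyme that starts the lipid-linked oligosaccharide transferred to new glycoproteins. The comparison used 4 of the 9 samples of the series, thapsigargin replicates 1 and 3 and tunicamycin replicates 1 and 2, and all 22184 probes of an Illumina bead array. The 3 treatments of the series were the vehicle DMSO, thapsigargin and tunicamycin, each with 3 labelled replicates of the same line, grown in DMEM/F12 with serum. Neither dose nor duration is stated in the sources used here, so the comparison is between the 2 treatments as they were applied and not between matched doses. Nothing in the labels says whether replicates were separate cultures, so the p-values describe the spread among these arrays, and that spread may be technical.

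Misfolded proteins in the ER engage 3 sensors, IRE1, PERK and ATF6. ATF6 and the XBP1 factor made after IRE1 splicing raise chaperones and degradation factors of the ER, often through the ER stress response element (ERSE) in their promoters. PERK slows translation and favours ATF4, which raises DDIT3 (CHOP) and genes of amino acid supply. Calcium loss impairs calcium-dependent chaperones and opens calcium entry at the plasma membrane, whereas loss of N-glycans removes the tags that calnexin and calreticulin read.

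The 4 samples were chosen because their signal columns held single arrays. Thapsigargin replicate 2 was the mean of replicates 1 and 3 at every probe, with a largest relative deviation of 9.76e-08. Tunicamycin replicate 3 was a mixture of replicates 1 and 2 with 1 further array, and this recovered array lay near DMSO. HSPA5, for example, had a log2 intensity of 8.85 on it, against 8.88 on DMSO replicate 1 and 12.24 and 12.15 on tunicamycin replicates 1 and 2. With the recovered array added to the tunicamycin arrays, 1 probe (PCP4) was called in place of 1426, none of the 23 gene lists kept a called member, and 643 probes had an unadjusted p below 0.05 in limma. Every result below is therefore for the 4 arrays, without the recovered one.

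On the 4 drug arrays, between 12494 and 12737 probes were detected and the mean intensity ranged from 318.1 to 390.6. DMSO replicate 1, a single array, entered the normalization and is given as a level, with no test against it. The noradrenergic identity of the line was visible on all 4 drug arrays: 17 of 24 noradrenergic markers passed the filter, PHOX2A, DBH, ISL1 and GATA2 among them, while HAND2, SLC6A2, SLC18A1 and SLC18A2 did not. Of 16 mesenchymal markers 9 passed, TWIST1 and VIM among them, while FN1, PRRX1, YAP1 and COL1A2 did not pass.

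Thapsigargin and tunicamycin left the cells with clearly separable expression profiles. Of 12500 probes detected on both arrays of at least 1 drug, 1426 (11.4%) differed at an adjusted p below 0.05 in limma, with 645 (5.16%) higher with thapsigargin and 781 (6.25%) with higher levels under tunicamycin; such probes are referred to as called. For 10333 genes, each read by its brightest kept probe, 1210 (11.7%) were called, 564 (5.46%) with the higher level under thapsigargin and 646 (6.25%) under tunicamycin. Most differences were small. The median called difference was 0.40 log2 units among probes higher with thapsigargin and -0.41 among those higher with tunicamycin, and only 45 probes (0.36%) were called at 2-fold or more, 25 with higher levels under thapsigargin and 20 under tunicamycin. The median difference over all kept genes was 0.01.

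The difference between the drugs exceeded that between arrays of 1 drug. The SD of the log2 difference over kept probes was 0.147 between the thapsigargin arrays and 0.143 between the tunicamycin arrays, and ranged from 0.239 to 0.264 between arrays of different drugs. The number of calls rested on the full set of 4 arrays. Without thapsigargin replicate 1 it was 322, without thapsigargin replicate 3 it was 214, without tunicamycin replicate 1 it was 478, and without tunicamycin replicate 2 it was 540. In all 4 of these fits 167 genes were called, 75 in favour of thapsigargin and 92 in favour of tunicamycin, and the smallest of their log2 differences was 0.569 in size. An exact permutation test of 2 arrays against 2 cannot give a two-sided p below 0.333, so single genes were tested only in the fit across all probes.

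**Figure D1:**
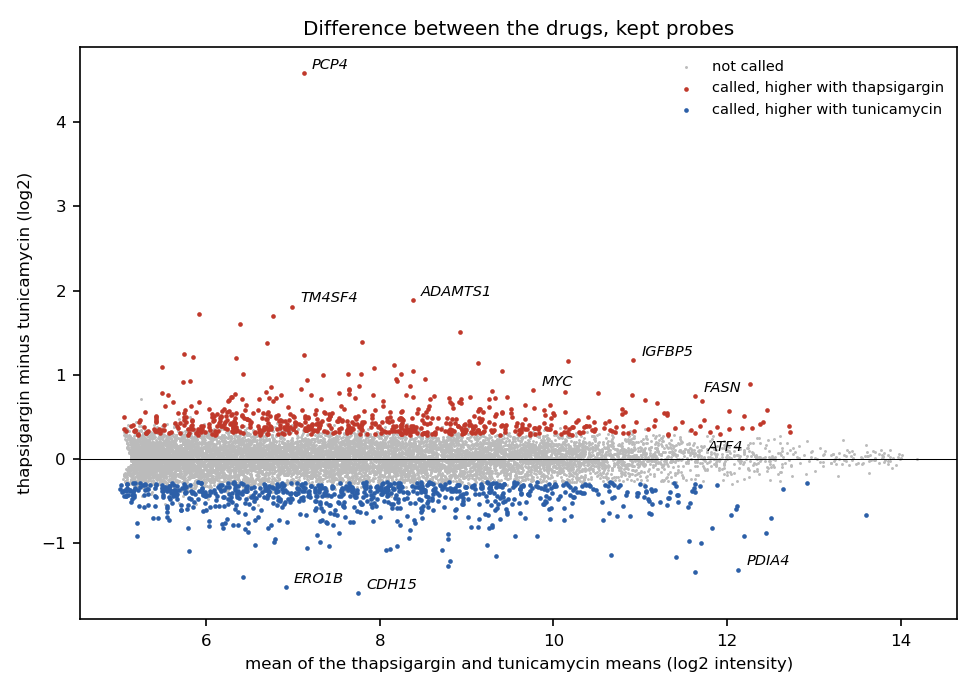
Difference between the thapsigargin and tunicamycin means (log2, vertical axis) against their average log2 intensity (horizontal axis) for the 12500 kept probes, with called probes in colour. PCP4 stands alone at 4.59, and the other called probes lie between -1.60 and 1.89.

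The largest difference belonged to PCP4, a small calmodulin-binding protein first described in Purkinje cells. Its log2 intensity was 9.41 and 9.43 on the thapsigargin arrays and 4.84 and 4.82 on the tunicamycin arrays, with 5.02 on the DMSO array. It was detected on both thapsigargin arrays and not on either tunicamycin array or on the DMSO array, so the difference is a bound. In the main processing, thapsigargin exceeded tunicamycin by at least 19.7-fold for PCP4, or 4.30 log2 units (limma adjusted p = 3.86e-07). The fitted log2 difference was 4.59. With normexp background correction it was 3.34, which is below that bound, so the bound holds for the main processing only.

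ADAMTS1, a secreted metalloprotease of the extracellular matrix, was at 9.30 and 9.35 with thapsigargin, 7.45 and 7.43 with tunicamycin and 9.21 on the DMSO array. It was 3.70-fold higher with thapsigargin (log2 difference 1.89, SE 0.0717, limma adjusted p = 0.000125), with the thapsigargin arrays next to the DMSO level and the tunicamycin arrays far below it. TM4SF4, a tetraspan membrane protein, stood on both sides of the vehicle: 7.96 and 7.84 with thapsigargin, 6.12 and 6.06 with tunicamycin and 7.20 on the DMSO array, a 3.50-fold difference (limma adjusted p = 0.000179). SORBS2, an adaptor protein of the actin cytoskeleton, had the same arrangement, at 7.14 and 7.24 against 5.63 and 5.53, with DMSO at 6.38. These 2 genes were the only called genes whose drug means lay at least 0.5 log2 units from the DMSO array in opposite directions. A second kept probe of SORBS2 differed by 0.14 and was not called (limma adjusted p = 0.323).

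COL5A1, a chain of the fibrillar collagen type V, was at 7.67 and 7.56 with thapsigargin and at 6.01 and 5.82 with tunicamycin, with 5.83 on the DMSO array (log2 difference 1.70, limma adjusted p = 0.000379). The tunicamycin arrays thus lay at the DMSO level and the thapsigargin arrays above it. The same order was seen for GPR22, an orphan G protein-coupled receptor, at 6.89 and 6.67 against 5.14 and 4.97, and for KCNJ2, an inward-rectifier potassium channel, at 6.35 and 6.38 against 5.00 and 5.24. Both were detected on 1 of 2 tunicamycin arrays and not on the DMSO array. ZNF385D, a zinc finger protein, was at 6.43 and 6.48 against 5.26 and 5.24, with DMSO at 5.37.

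KANK4, a scaffold protein of the KANK family, was at 9.64 and 9.72 with thapsigargin and at 8.18 and 8.17 with tunicamycin, both above the DMSO level of 7.74 (log2 difference 1.505, limma adjusted p = 0.000267). ADGRG1, an adhesion G protein-coupled receptor, was at 7.36 and 7.42 against 6.05 and 5.99, also both above DMSO at 5.61. NCAM2, a neural cell adhesion molecule, and CHST15, a sulfotransferase of chondroitin sulfate, had the DMSO level between the drugs. NCAM2 was at 8.51 and 8.46 against 7.16 and 7.04, and CHST15 at 7.77 and 7.72 against 6.56 and 6.46, for log2 differences of 1.38 and 1.23. All genes named from ADAMTS1 onwards kept the call in every fit that left out 1 array.

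At the other end, CDH15, a cadherin known from muscle, was at 8.54 and 8.55 with tunicamycin and at 6.94 and 6.95 with thapsigargin, with 5.54 on the DMSO array. It was 3.03-fold higher with tunicamycin (log2 difference -1.60, SE 0.0705, limma adjusted p = 0.000179). TNFRSF12A, the receptor of the cytokine TWEAK, was at 7.03 and 7.22 with tunicamycin and at 5.80 and 5.64 with thapsigargin, where the DMSO array had 5.72. KLF9, a zinc finger transcription factor, showed the same arrangement, at 9.29 and 9.24 against 8.21 and 8.15, with DMSO at 8.14. Thus for TNFRSF12A (log2 difference -1.41) and KLF9 (-1.09) only the tunicamycin arrays left the level of DMSO replicate 1, while CDH15 was above it with both drugs. A further DMSO array, recovered from DMSO replicate 3 and normalized with more arrays, had 5.96 for TNFRSF12A and 7.89 for KLF9. The thapsigargin values lay below that level for TNFRSF12A and above it for KLF9. Of the 12 genes furthest towards tunicamycin, the other 9 belong to the ER stress response and are described next.

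**Figure D2:**
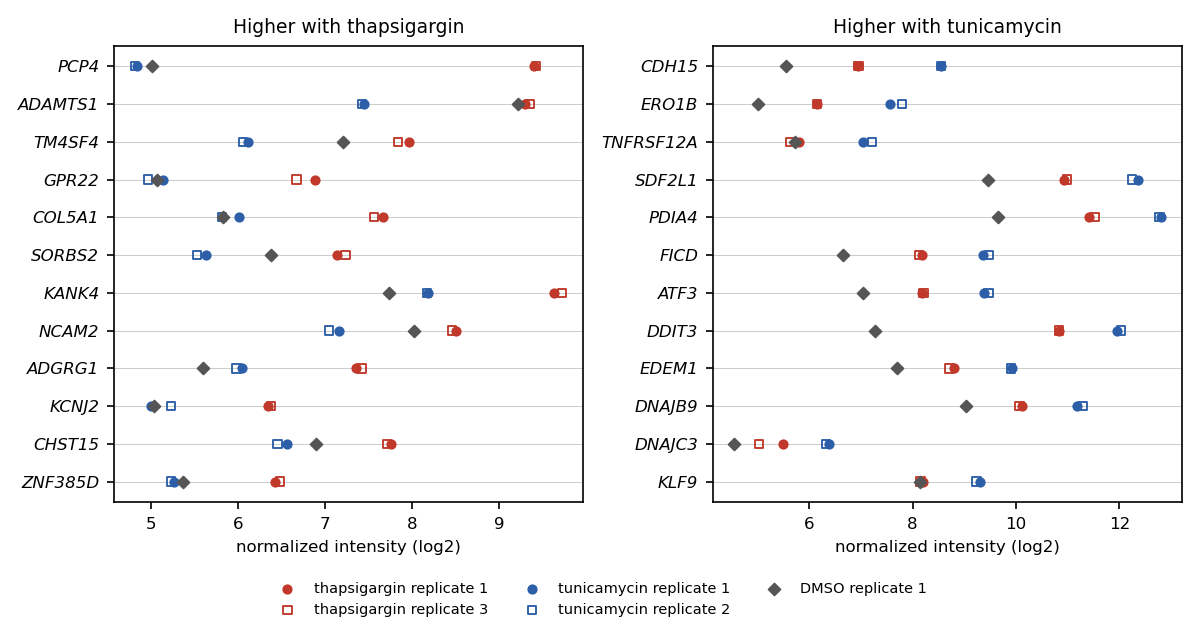
Normalized log2 intensity (horizontal axis) of the 12 genes furthest in each direction, with 1 point per array for thapsigargin, tunicamycin and DMSO replicate 1. The genes were chosen as called genes without overlap between drugs, so both arrays of 1 drug lie above both of the other. Of all kept probes, 57.7% have no such overlap. For PCP4 the tunicamycin and DMSO points coincide near 5.

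Chaperones and folding enzymes of the ER were mostly higher with tunicamycin. Of 27 kept members of this list, 16 were called higher with tunicamycin (59.3%, against 6.25% of all kept genes) and 1 higher with thapsigargin, and the median log2 difference was -0.43 against 0.01 over all kept genes. The DMSO array was below both drugs for 24 of the 27, a count without its share over all kept genes. Between 11 and 13 members were still called higher with tunicamycin when 1 array was left out. The 8 called genes whose promoter held an exact ERSE, the element recognised by ATF6 and XBP1 together with NF-Y, were all higher with tunicamycin, and their sequences are shown because most of them are the chaperones and factors described below. CRELD2 and SERP1 were named through this search, after their values were seen. The stretches are upstream sequence of each start site in RefSeq (GRCh38.p14), 5′ to 3′ on the strand of the gene, with capitals marking the match on either strand.
HSPA5, chr9:125241376-125241424, minus strand: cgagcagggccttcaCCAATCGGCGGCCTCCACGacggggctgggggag
XBP1, chr22:28800588-28800636, minus strand: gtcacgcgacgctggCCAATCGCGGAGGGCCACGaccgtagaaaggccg
FICD, chr12:108515108-108515156, plus strand: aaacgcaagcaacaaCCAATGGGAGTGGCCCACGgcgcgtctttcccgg
CRELD2, chr22:49918539-49918587, plus strand: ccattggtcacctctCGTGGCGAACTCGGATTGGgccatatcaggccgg
CALR, chr19:12938369-12938417, plus strand: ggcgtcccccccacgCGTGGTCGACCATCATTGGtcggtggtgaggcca
ERO1B, chr1:236282168-236282208, minus strand: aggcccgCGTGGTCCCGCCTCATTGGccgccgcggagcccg
SERP1, chr3:150546695-150546743, minus strand: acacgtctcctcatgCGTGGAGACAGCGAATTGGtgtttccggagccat
HSP90B1, chr12:103930201-103930354, plus strand: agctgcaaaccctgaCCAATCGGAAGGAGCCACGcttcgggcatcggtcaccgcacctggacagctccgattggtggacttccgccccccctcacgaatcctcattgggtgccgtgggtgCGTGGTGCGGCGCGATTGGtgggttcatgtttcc

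The search allowed 9 free bases between CCAAT and CCACG, on both strands, in the window from 250 bases before to 50 after the start. Such a match was found in 22 of 27305 promoters (0.0806%), in 13 of the 8587 kept genes with a promoter sequence (0.151%), in 8 of 557 genes higher with tunicamycin (1.44%) and in 0 of 458 higher with thapsigargin. HSP90B1 held 2 matches, 1 in each orientation. In the chaperone list 6 of 28 promoters (21.4%) held one. Of other elements, TGATGNAA, the C/EBP-ATF element of the amino acid response, was in 24 of the 557 (4.31%) and 11 of the 458 (2.40%), against 1.75% of kept genes. The cyclic AMP element TGACGTCA was in 3.41% and 3.06%, against 3.24% of kept genes. A match is a description of these letters and shows no binding.

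HSPA5 (BiP), the Hsp70 chaperone of the ER lumen that holds the stress sensors inactive, was at 12.24 and 12.15 with tunicamycin, 11.20 and 11.18 with thapsigargin and 8.88 on the DMSO array. Both drugs were thus far above the vehicle, and tunicamycin was 2.00-fold above thapsigargin (log2 difference -1.002, SE 0.0748, limma adjusted p = 0.000774). HSP90B1 (GRP94), its Hsp90 partner, was at 12.85 and 12.87 against 12.10 and 12.21, with DMSO at 10.57, a log2 difference of -0.71. SDF2L1, a BiP co-chaperone component, was at 12.37 and 12.24 against 10.92 and 10.99, with DMSO at 9.47 (-1.35, limma adjusted p = 0.000437). PDIA4, a protein disulfide isomerase, was at 12.80 and 12.78 against 11.42 and 11.52, with DMSO at 9.65 (-1.32). The 4 genes had the same order, DMSO lowest and tunicamycin highest. Their drug arrays did not overlap, which held for every called probe and for 57.7% of all kept probes.

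ERO1B, an oxidase that recharges disulfide isomerases, was at 7.57 and 7.79 with tunicamycin and at 6.15 on both thapsigargin arrays, and was not detected on the DMSO array (log2 difference -1.53). The J-domain co-chaperones of BiP followed. DNAJB9 was at 11.18 and 11.29 against 10.11 and 10.07, with DMSO at 9.03, and DNAJC3, which also restrains PERK, at 6.38 and 6.32 against 5.49 and 5.03 (limma adjusted p = 0.00572), where it was detected on 1 of 2 thapsigargin arrays. FICD, which adds and removes AMP on BiP, was at 9.37 and 9.48 against 8.18 and 8.12, with DMSO at 6.65 (-1.27). CALR, the calcium-binding lectin chaperone calreticulin, differed less, at 10.71 and 10.73 against 10.25 and 10.35 (-0.42, limma adjusted p = 0.0168), and lost the call in each fit that left out 1 array. FKBP7, a prolyl isomerase of the ER, was the 1 member higher with thapsigargin. It was at 6.74 and 6.48 against 5.82 and 6.03, with the DMSO array at 6.66, and it lost the call without thapsigargin replicate 1 (limma adjusted p = 0.0739).

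ER-associated degradation, which returns misfolded proteins to the cytosol for the proteasome, had 11 of 23 kept members higher with tunicamycin (47.8%, against 6.25% of all kept genes) and 0 higher with thapsigargin, and a median of -0.18. The 11 became 5 to 8 when 1 array was left out. EDEM1, which extracts misfolded glycoproteins by trimming their mannoses, was at 9.92 and 9.91 with tunicamycin, 8.80 and 8.71 with thapsigargin and 7.71 on the DMSO array (-1.16, limma adjusted p = 0.000519). HERPUD1, an organiser of the degradation complex, was at 12.05 on both tunicamycin arrays and at 11.08 and 11.07 on the thapsigargin arrays, with DMSO at 8.63 (-0.97). DERL2, a retrotranslocation factor, was at 9.74 and 9.62 against 8.78 and 9.02 (-0.79). SEL1L, the adaptor of the ligase HRD1, differed by -0.72 (limma adjusted p = 0.0132) and lost the call without thapsigargin replicate 3 and without tunicamycin replicate 1 (adjusted p up to 0.0692).

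Among the sensors and transcription factors of the unfolded protein response, 4 of 20 kept members were higher with tunicamycin and 0 with thapsigargin (median -0.10). The share called was 20.0%, against 11.7% of all kept genes. WFS1, an ER membrane protein that restrains ATF6, was at 10.11 and 9.93 against 9.12 and 9.09, with DMSO at 8.15 (-0.92, limma adjusted p = 0.00189). CREB3L2, an ER-anchored factor related to ATF6, was at 11.44 and 11.47 against 10.81 and 10.79 (-0.65). XBP1, whose mRNA is spliced by IRE1, was at 11.30 and 11.25 against 10.81 and 10.83, with DMSO at 8.86 (-0.45, limma adjusted p = 0.0119). EIF2AK3, which encodes PERK, differed by -0.46. XBP1 and EIF2AK3 stayed called only without tunicamycin replicate 2 (adjusted p up to 0.0769 and 0.0992 in the other 3 such fits), and the list as a whole kept 2 to 4 calls.

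The PERK-ATF4-CHOP branch had 10 of 22 kept members higher with tunicamycin (45.5%, against 6.25% of all kept genes) and 0 higher with thapsigargin (median -0.28), and 5 to 8 with 1 array left out. DDIT3 (CHOP), a transcription factor of prolonged stress, was at 11.96 and 12.03 with tunicamycin, 10.83 on both thapsigargin arrays and 7.28 on the DMSO array. Tunicamycin was 2.25-fold above thapsigargin (log2 difference -1.17, SE 0.0725, limma adjusted p = 0.000437), on top of a distance of both drugs from the vehicle that was larger. ATF3, a stress-induced factor downstream of ATF4, was at 9.38 and 9.47 against 8.19 and 8.21, with DMSO at 7.03 (-1.22). GDF15, a secreted stress cytokine, was at 9.72 and 9.78 against 8.71 and 8.73, with DMSO at 5.42 (-1.03). CHAC1, which degrades glutathione, was at 6.68 and 6.84 against 5.93 and 6.02 (-0.79) and was not detected on the DMSO array. TRIB3, a pseudokinase induced by CHOP, was nearer between the drugs, at 11.72 and 11.68 against 11.21 and 11.15 (-0.52, limma adjusted p = 0.00789), and lost the call without thapsigargin replicate 3 (adjusted p = 0.0706).

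ATF4 itself was not called. Its log2 intensity was 11.58 and 11.83 with thapsigargin, 11.59 and 11.72 with tunicamycin and 10.19 on the DMSO array. The arrays of the drugs overlapped, and the difference of 0.04 had a 95% interval of -0.19 to 0.28 (limma adjusted p = 0.815). The interval covers 1 gene and leaves room for differences inside it.

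**Figure D3:**
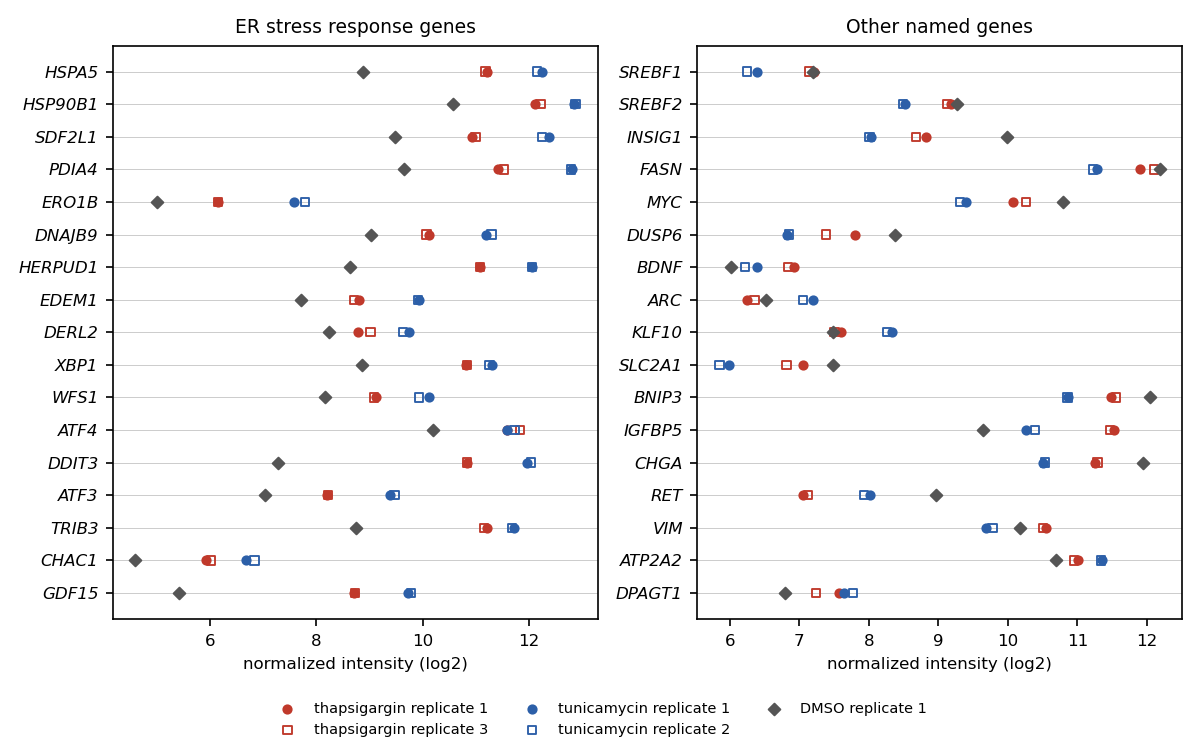
Normalized log2 intensity (horizontal axis) of selected named genes, with 1 point per array for thapsigargin, tunicamycin and DMSO replicate 1. HSPA5 and DDIT3 have the order DMSO, thapsigargin, tunicamycin, whereas the thapsigargin and tunicamycin points of ATF4 overlap between 11.58 and 11.83.

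Genes of amino acid supply and tRNA charging, many of them ATF4 targets, had small median differences, and their called members were all higher with tunicamycin. Of 22 kept amino acid genes 7 were higher with tunicamycin and 0 with thapsigargin, and of 19 kept aminoacyl-tRNA synthetases 4 and 0, with medians of -0.15 and -0.13. The shares higher with tunicamycin, 31.8% and 21.1%, stood against 6.25% of all kept genes. With 1 array left out, the first count was 0 to 2 and the second was 0 in each of the 4 fits. The amino acid transporter chain SLC3A2 had the widest gap, at 10.14 and 9.93 against 9.24 and 9.41, with DMSO at 7.85 (-0.71, limma adjusted p = 0.00798), though without either thapsigargin array it was not called (adjusted p up to 0.0658). A second kept probe of SLC3A2 differed by -1.07 and was called too. WARS1 and AARS1, the synthetases for tryptophan and alanine, differed by -0.38 and -0.36, with the DMSO array at 8.26 and 10.65 and the lower drug array at 10.42 and 12.41, respectively.

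Called members of the machinery that brings proteins into the ER and onward were also mostly higher with tunicamycin. The translocon and signal peptidase list had 11 of 23 kept members higher with tunicamycin and 0 higher with thapsigargin (median -0.28), and ER-Golgi transport had 11 of 35 and 2 (median -0.19). Of all kept genes 6.25% were higher with tunicamycin, against 47.8% and 31.4% of these lists. Without 1 array these became 1 to 3 for the translocon list and 3 to 4 for transport. TRAM1, a helper of the translocon, was at 11.83 and 11.82 against 11.25 and 11.27, with DMSO at 10.22 (-0.57, limma adjusted p = 0.005). SSR3, a subunit of the translocon-associated complex, was detected on both tunicamycin arrays and neither thapsigargin array and was at least 1.19-fold higher with tunicamycin. PREB, the exchange factor that starts COPII coats, was at 9.47 and 9.44 against 8.57 and 8.72 (-0.81), and the Golgi SNARE protein STX5 at 10.92 and 10.96 against 10.20 and 10.22 (-0.73). KDELR3, a receptor that returns ER proteins from the Golgi, went the other way, at 6.76 and 6.47 with thapsigargin against 6.20 and 5.95, with both drugs above the DMSO array at 4.89. Among the fits that left out 1 array, its difference of 0.54 stayed called only without tunicamycin replicate 1. A second kept probe of KDELR3 differed by 0.67 and was called too (limma adjusted p = 0.0113).

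The targets of the drugs themselves differed little. ATP2A2, which encodes the SERCA2 pump that thapsigargin inhibits, was at 11.01 and 10.95 with thapsigargin, 11.36 and 11.34 with tunicamycin and 10.69 on the DMSO array. It was lower with thapsigargin and called (log2 difference -0.37, limma adjusted p = 0.0235). The call was lost in every fit that left out 1 array, and its 2 other kept probes, at -0.16 and -0.24, were not called. DPAGT1, the target of tunicamycin, was at 7.57 and 7.24 with thapsigargin and at 7.65 and 7.77 with tunicamycin, with DMSO at 6.79. The arrays did not overlap, but the difference of -0.31 had a 95% interval of -0.58 to -0.03 and was not called (limma adjusted p = 0.133).

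Calcium handling was represented by 22 kept pumps, channels and store sensors, of which 2 were higher with tunicamycin and 0 with thapsigargin (median -0.09). This share of 9.1% stood against 6.25% of all kept genes higher with tunicamycin and 11.7% called in either direction. Besides ATP2A2 the called member was ITPR2, an inositol trisphosphate receptor of the ER, at 6.38 and 6.22 against 5.72 and 5.66, with the DMSO array at 5.66 (-0.62, limma adjusted p = 0.00684), and not called without either thapsigargin array (adjusted p up to 0.072). STIM1, the sensor of ER calcium that opens plasma membrane channels, was at 6.76 and 7.01 with thapsigargin and at 7.06 and 6.92 with tunicamycin. These arrays overlapped, and the interval of the difference was -0.34 to 0.13. RCAN1, an inhibitor and known target of calcineurin signalling, was at 9.68 and 9.64 against 9.70 and 9.72, with DMSO at 9.67, an interval of -0.22 to 0.12. Of 27 kept calcium-binding proteins, 4 were higher with tunicamycin and 1, RCN3, higher with thapsigargin (median -0.05), 18.5% called against 11.7% of all kept genes. The 4 were HSP90B1, CALR, NUCB2 and CAPN2. Only 1 or 2 of these calls remained in number with an array left out.

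In the glycan pathway, 4 of 27 kept genes of dolichol and lipid-linked oligosaccharide synthesis were higher with tunicamycin and 1 higher with thapsigargin, and the median was -0.12. The shares were 14.8% against 6.25% of all kept genes and 3.7% against 5.46%. GMPPB, which makes the mannose donor GDP-mannose, led, at 6.96 and 6.88 with tunicamycin against 6.09 and 6.002, with DMSO at 5.57 (-0.87, limma adjusted p = 0.00155). A second GMPPB probe differed by -0.12 and was not called. Each fit without 1 array called 1 member higher with tunicamycin. ALG3, a mannosyltransferase, was the member higher with thapsigargin (0.33) and lost the call in each of these fits. GFPT1, which starts the hexosamine pathway and is a known XBP1 target, was at 8.64 and 8.56 against 8.44 and 8.36, with DMSO at 7.42, and was not called (-0.20, 95% interval -0.38 to -0.02, limma adjusted p = 0.13). For the oligosaccharyltransferase and N-glycan trimming, 5 of 24 were higher with tunicamycin, the catalytic subunits STT3B (-0.55) and STT3A (-0.33) among them (20.8% in all, against 6.25% of all kept genes), and 0 to 1 with an array left out. The median was -0.09.

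**Figure D4:**
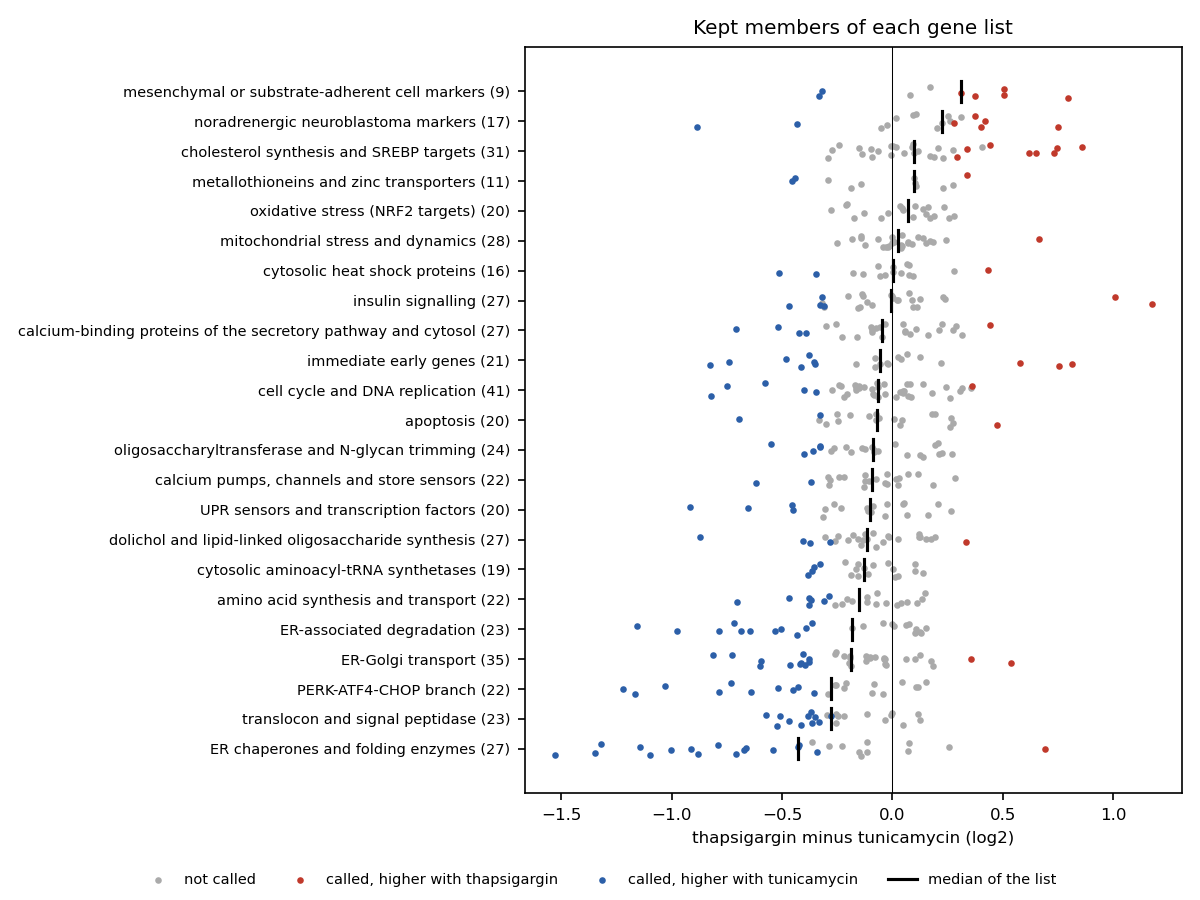
Log2 difference of thapsigargin minus tunicamycin (horizontal axis) for each kept member of the 23 gene lists, with called members in colour, a bar at each median and the number of kept members in brackets. The ER chaperones reach furthest to the left with a median of -0.43, and cholesterol synthesis has 8 called members, all to the right of 0.

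In cholesterol and fatty acid synthesis the called members were higher with thapsigargin. Of 31 kept members, 8 were higher with thapsigargin (25.8%, against 5.46% of all kept genes), 0 were higher with tunicamycin and 23 were not called. The median was 0.10, with 21 differences above 0 and 10 below, and 5 or 6 members were called with an array left out. The DMSO array was above both drugs for 25 of the 31, again without the share over all kept genes. SREBF1, the transcription factor that drives lipid synthesis, was at 7.21 and 7.14 with thapsigargin, 6.39 and 6.25 with tunicamycin and 7.20 on the DMSO array, a 1.81-fold difference (log2 0.86, SE 0.0821, limma adjusted p = 0.00214). SREBF2, its relative for sterol genes, was at 9.19 and 9.12 against 8.52 and 8.49, with DMSO at 9.27 (0.65). FASN, the fatty acid synthase, was at 11.90 and 12.10 against 11.29 and 11.23, with DMSO at 12.19 (limma adjusted p = 0.00455). For these 3 genes the thapsigargin arrays lay near the DMSO level and the tunicamycin arrays below it.

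INSIG1, which retains SREBP in the ER when sterols are sufficient, was below the DMSO array with both drugs. It was at 8.82 and 8.68 with thapsigargin and at 8.04 and 8.01 with tunicamycin, against 9.99 on the DMSO array (log2 difference 0.73, limma adjusted p = 0.00314). A SREBP element with the letters TCACNCCAC was in 1 of 30 promoters of this list (3.33%), against 1.04% of kept genes.

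Among immediate early genes, 21 of 34 were kept, of which 7 were called higher with tunicamycin, 3 were called higher with thapsigargin and 11 were not called (median -0.06). The share called was 47.6%, against 11.7% of all kept genes. ARC, an activity-regulated synaptic gene, was at 7.20 and 7.05 with tunicamycin against 6.25 and 6.35, with the DMSO array between them at 6.52 (-0.83, limma adjusted p = 0.00258). KLF10, a factor induced by TGF-beta, was at 8.34 and 8.26 against 7.61 and 7.50, with DMSO at 7.49 (-0.74). Another kept probe of KLF10 differed by -0.73 and was called, and a further one by -0.325 and was not called (limma adjusted p = 0.0936). MYC was at 10.08 and 10.26 with thapsigargin against 9.40 and 9.32, with DMSO at 10.80, so both drugs were below the vehicle and tunicamycin further (0.82, limma adjusted p = 0.0029). BDNF, a neurotrophin, was at 6.92 and 6.84 against 6.39 and 6.22, with DMSO at 6.01 (0.58), lost the call without either thapsigargin array (adjusted p up to 0.0721), and had a second probe at 0.14 that was not called. DUSP6, a phosphatase of ERK, differed by 0.75 and lost the call without tunicamycin replicate 1 (adjusted p = 0.0512). With an array left out, 2 or 3 members were called in each direction. EGR1, FOS and FOSB were among the 13 members that were not kept or had no probe named here.

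The brake on the cell cycle CDKN1A (p21) was 1.77-fold higher with tunicamycin, at 12.22 and 12.25 against 11.41 and 11.42, with DMSO at 9.83 (limma adjusted p = 0.0014). CCNE2, a cyclin of S-phase entry, was at 8.07 on both tunicamycin arrays against 7.45 and 7.18, both below DMSO at 8.47 (-0.75). Of 41 kept cell cycle genes 5 were higher with tunicamycin and 1, CDC25B, with thapsigargin, a share of 14.6% near the background of 11.7%, and the median was -0.07. With an array left out, 2 or 3 were called higher with tunicamycin. Among 20 kept apoptosis genes, HRK and BAK1 were higher with tunicamycin and BID higher with thapsigargin (median -0.07). This share of 15% was also near the background, and at most 1 member was called in any fit with an array left out.

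The series concerns insulin signalling and mitochondria. In the insulin list, 2 of 27 kept members were higher with thapsigargin and 4 higher with tunicamycin. The shares were 7.4% against 5.46% of all kept genes and 14.8% against 6.25%. Each fit that left out 1 array called 2 and 0, respectively, and the median was -0.01. IGFBP5, a secreted binding protein of insulin-like growth factors, was at 11.53 and 11.47 with thapsigargin and at 10.26 and 10.39 with tunicamycin, with DMSO at 9.64, a 2.26-fold difference (limma adjusted p = 0.00057). SLC2A1, the basal glucose transporter GLUT1, was at 7.05 and 6.81 against 5.99 and 5.85, with DMSO at 7.48 (1.01, limma adjusted p = 0.00242). IGFBP5 was thus above the vehicle with both drugs and SLC2A1 below it with both. Of 28 kept mitochondrial genes only BNIP3, a mitophagy receptor, was called (3.6%, below the background of 11.7%), at 11.49 and 11.56 against 10.87 and 10.86, with DMSO at 12.05 (0.66, limma adjusted p = 0.00322). The cytosolic heat shock list had 1 of 16 higher with thapsigargin, the constitutive HSPA8 (0.44), and 2 higher with tunicamycin, 18.8% called against 11.7% of all kept genes. HSPA8 lost the call in each fit that left out 1 array, and the 2 others became 1 without thapsigargin replicate 1 and 0 in the other 3 fits. None of 20 kept NRF2 targets was called in limma, while 6 had an unadjusted p below 0.05, and with normexp 4 were called higher with thapsigargin and 2 higher with tunicamycin. Of 11 kept metallothionein and zinc genes, MT1X was called higher with thapsigargin and SLC30A1 and SLC30A7 higher with tunicamycin, 27.3% against 11.7% of all kept genes. MT1X lost the call in each fit that left out 1 array, and SLC30A1 and SLC30A7 stayed called only without tunicamycin replicate 2. The medians were 0.02 for the mitochondrial, 0.07 for the NRF2 and 0.10 for the metallothionein and zinc list.

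Some markers of the cell state differed as well. Of 17 kept noradrenergic markers, 5 were higher with thapsigargin (29.4%, against 5.46% of all kept genes) and 2 with tunicamycin (11.8%, against 6.25%), which became 1 or 2 in each direction with an array left out; the median was 0.22. CHGA, a granule protein of neuroendocrine cells, was at 11.26 and 11.29 with thapsigargin against 10.51 and 10.54, with DMSO at 11.95 (0.75, limma adjusted p = 0.00214). RET, a receptor of GDNF-family ligands, was at 8.02 and 7.93 with tunicamycin against 7.05 and 7.12, with DMSO at 8.96 (-0.89), and both its other kept probes were called in the same direction. For both genes the 2 drugs were below the DMSO array. The summed intensity of the 17 markers was 46675 and 45118 with thapsigargin, 42453 and 41456 with tunicamycin and 54696 with DMSO.

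Of 9 kept mesenchymal markers, 5 were higher with thapsigargin and 2, CD44 and NES, higher with tunicamycin (median 0.31). The shares were 55.6% against 5.46% of all kept genes and 22.2% against 6.25%. With an array left out, 1 to 3 were called higher with thapsigargin and 0 with tunicamycin. VIM, the intermediate filament vimentin, was at 10.55 and 10.51 against 9.68 and 9.78, with DMSO at 10.17 between the drugs (0.79, limma adjusted p = 0.00214). The summed intensity of the 9 was 7284 and 7934 with thapsigargin, 6728 and 6702 with tunicamycin and 8824 with DMSO. The part of a change in cell composition in these results was not tested, and in bulk RNA fewer cells of a type cannot be told apart from less RNA per cell.

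Set against the DMSO array, the called genes lay mostly on the same side of the vehicle with both drugs, with tunicamycin further away. Of the 646 genes higher with tunicamycin, the DMSO array was below both drug means for 426, between them for 152 and above both for 68. Of the 564 higher with thapsigargin, it was above both for 345, between for 147 and below both for 72. The tunicamycin mean was further from the DMSO array than the thapsigargin mean for 950 of 1210 called genes (78.5%), against 61.2% of all 10333 kept genes. Genes that differed from the vehicle with 1 drug alone existed for both. A total of 32 called genes were at least 0.5 log2 units from the DMSO array with thapsigargin and within 0.2 with tunicamycin, 19 of them higher and 13 lower with thapsigargin than with tunicamycin. The reverse held for 116, of which 57 were higher and 59 lower with tunicamycin than with thapsigargin. PCP4, GPR22, COL5A1, KCNJ2 and ZNF385D were among the first and ADAMTS1, TNFRSF12A, KLF9, FASN and SREBF1 among the second. These positions rest on 1 DMSO array, which enters the distance of both drugs, and have no test. The recovered DMSO array was not used for these gene counts. The share of all kept genes with both drugs on the same side of the DMSO array was not computed.

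**Figure D5:**
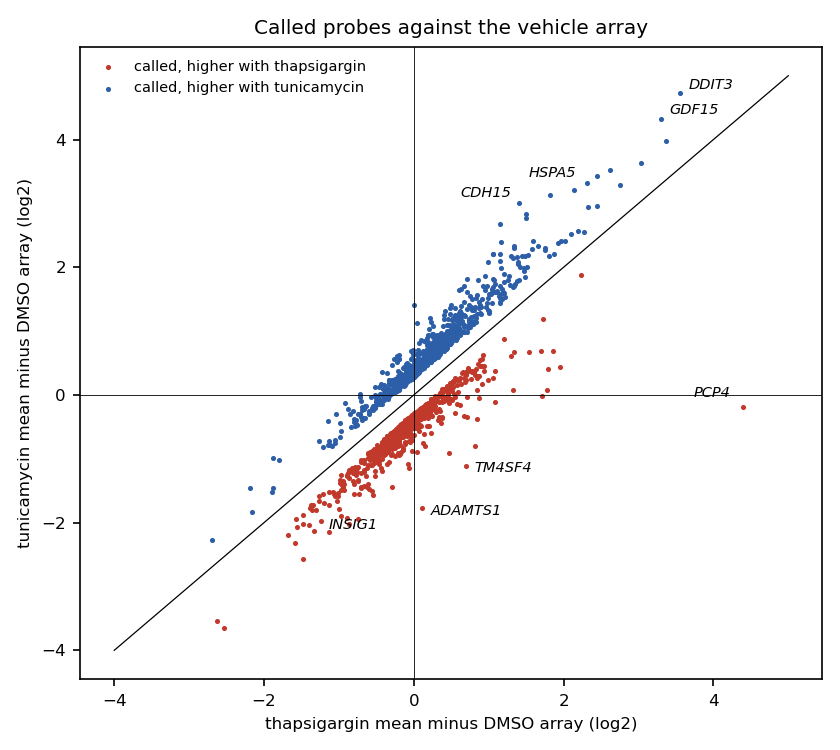
Mean log2 intensity minus the DMSO array for thapsigargin (horizontal axis) and tunicamycin (vertical axis), with 1 point per called probe and a diagonal of equal distance. Most points lie in the quadrants where both drugs are on the same side of DMSO, and PCP4 lies alone at 4.40 on the thapsigargin axis near -0.19 on the tunicamycin axis.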

How the data were processed

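RNA from SH-SY5Y cells was labelled as biotinylated cRNA and hybridised to Illumina 1-colour bead arrays, per the labels' protocols. The authors deposited a table of non-normalized intensity values with a detection p-value for each probe and sample. They also deposited a table of normalized intensity values on a linear scale, used as an alternative. How the normalization was done, the array settings, and how some signal columns came to be means of others were not found in the sources used here. Each single-array column took the set of detection p-values whose ranking of the probes it matched without a break. For thapsigargin replicate 3 and tunicamycin replicate 1 this set stood under the same sample. The set of thapsigargin replicate 1 stood under thapsigargin replicate 2, and that of DMSO replicate 1 under DMSO replicate 2. For tunicamycin replicate 2 it stood under DMSO replicate 1. Whether signals or p-values were displaced was not tested, and the drug labels rest on the headers of the signal columns.

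The 4 drug arrays and DMSO replicate 1 were processed with the neqc function (background correction, then quantile normalization) of limma 3.58.1 under R 4.3.3, using an offset of 16 and negative controls inferred from the deposited detection p-values. The resulting log2 values of the deposited intensities were fitted with lmFit and eBayes on the 4 drug arrays, with no covariate. A probe entered the fit when its detection p-value fell under 0.05 on both arrays of at least 1 drug. P-values were two-sided, with Benjamini-Hochberg adjustment across the 12500 probes that passed and a threshold of 0.05. The fit had 2 residual and 5.2 prior degrees of freedom, and the number of arrays limits the precision. Where neither array of a drug detected a probe, the fold is a lower bound, from the lowest detected signal or the probe's own, whichever was higher. The offset pulls differences of dim probes towards 0. The fit was also run on simulated arrays with independent normal noise of the fitted size. That setting cannot test whether the real arrays are independent.

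Genes were named from the platform annotation, which gave 1 symbol to 19715 of 22184 probes and none to 2469. Promoter sequences are from RefSeq. Named genes were the 12 largest called differences in each direction without overlap, up to 4 called members per list and direction, and 14 genes of the 2 drugs' pathways. The members and lists were chosen with earlier results of these data known. Alternatives covered the background correction, the scaling, the filter, the variance model, the columns used and leaving out each array. Figures were drawn with Python 3.11.15 and matplotlib 3.10.9.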

Additional observations from a re-analysis of the deposited data

How the results depend on the processing

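Depth is not known for arrays. Signal over background limits dim probes, whose differences shrink without the background correction, and 52 called probes were not detected with 1 of the drugs. The 1426 calls became 2501 with normexp, 2384 with no background correction, 2367 with the authors' normalized values, 2689 with a trended robust variance and 4012 with all 6 deposited columns taken as independent arrays, which counts computed columns as data. At 2-fold or more, the 45 probes became 19, 20, 20, 45 and 12. Adding the array recovered from tunicamycin replicate 3 left 1 probe in both counts. Leaving out 1 array gave 214 to 540 calls. Each of these fits had 1 array fewer, and the cause of the lower counts was not tested. Of the 1426 probes, 1368 were also called with normexp and 1069 with arrays centred on their medians. With the recovered array added, these log2 differences changed sign, each with a limma adjusted p of 1: DDIT3 0.43, GDF15 0.42, HSPA5 0.13, HERPUD1 0.17, HSP90B1 0.0738, SLC3A2 0.0544, TRIB3 0.48, NUCB2 0.29, CTH 0.0328, XBP1 0.36, CALR 0.0362, RPN1 0.0712, WARS1 0.50, MTHFD2 0.41, SLC1A4 0.21, CARS1 0.0240, AARS1 0.34, STT3A 0.18, IGFBP3 0.27, TARS1 0.0628, GMPPA 0.16, DDC -0.16, GAP43 -0.0697, HSPA8 -0.10 and S100A4 -0.18. The other called genes that are named kept their direction there. The counts of calls with the median-centred scaling (1194), neqc on the 4 drug arrays alone (1456), detection on all 4 arrays (1531) and no filter (977) stayed within 1.5 times. No paired analysis was possible because the 4 single arrays share only replicate number 1.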
